A study of Mus musculus with 4 samples.

Results

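The genes described here are target genes of the transcription factor p53 outside the BCL2 family and the CDK inhibitors, measured in mouse embryonic stem (ES) cells with and without leukemia inhibitory factor (LIF). They were chosen by symbol, from 10 genes named with earlier results of these data known. The rule took every probe set that the platform annotation gives exactly 1 gene symbol among these 10. That rule found 21 probe sets of 45101 in the table, for 9 genes of 18193: Mdm2, Ccng1, Perp, Aen, Phlda3, Zmat3, Trp53inp1, Sesn1 and Sesn2. The gene of p53 itself, Trp53, was named by the rule but had no matching probe set among those used, and it was not analysed here. The cells were CGR8, a single ES cell line, grown on gelatin in medium with serum replacement. On 2 of the 4 arrays the total RNA was from cells kept in LIF at 1000 U/ml, and on the other 2 it was from cells given LIF-free medium for 2 days. The arrays of each group carry the numbers 1 and 2. The labels do not say that they came from separate cultures, so the p-values cover only differences between these arrays, and those could be technical.

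p53 is a stress-responsive transcription factor that binds DNA as a tetramer and switches on genes of cell cycle arrest, DNA repair, apoptosis and metabolic control. Its level is held down by the ubiquitin ligase Mdm2, itself a p53 target, so that the pathway limits its own output. ES cells carry abundant p53, and in mouse ES cells p53 has been linked to the repression of Nanog and to differentiation. LIF acts through Jak1 and Stat3, a kinase and a transcription factor, to hold ES cells in the undifferentiated state.

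p53 binds a pair of copies of a consensus decamer, which reads the same on both strands. The RefSeq promoter table (build GRCm38.p6) holds windows of 250 bases before to 50 bases after a gene start, and 6 of the 9 genes had 8 windows in it. An exact match to the decamer lay in windows of 4 of these 6 genes (Ccng1, Mdm2, Aen and Sesn1), against 9.55% of all 27025 genes in the table. An exact pair of decamers with at most 13 bases between them lay in windows of 0 of the 6 genes and of 0.074% of all genes. A pair with at most 1 letter off lay in the window of 1 of the 6, Ccng1, and of 1.24% of all genes. These matches describe letters and not binding, and the search with 1 letter off was added after the Ccng1 window had been read. The 250 bases before the start of 3 genes are shown because they hold matches and because the genes stand at different places in the results: Ccng1 had the smallest p of the 9 genes once the array number was in the fit, Mdm2 is the feedback inhibitor and overlapped between the groups, and Sesn1 was the gene with a negative change. Capitals mark the decamer, and in Ccng1 the adjoining pair with 1 letter off, from 195 to 176 bases before the start. The stretches are chr11:40755287-40755536 on the minus strand for Ccng1, chr10:117710759-117711008 on the minus strand for Mdm2, and chr10:41887189-41887438 on the plus strand for the downstream one of the listed starts of Sesn1.
Ccng1: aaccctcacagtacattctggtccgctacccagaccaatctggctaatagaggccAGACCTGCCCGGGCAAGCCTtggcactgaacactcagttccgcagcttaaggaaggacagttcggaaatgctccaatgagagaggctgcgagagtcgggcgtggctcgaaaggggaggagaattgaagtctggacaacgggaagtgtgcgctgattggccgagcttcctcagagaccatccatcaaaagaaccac
Mdm2: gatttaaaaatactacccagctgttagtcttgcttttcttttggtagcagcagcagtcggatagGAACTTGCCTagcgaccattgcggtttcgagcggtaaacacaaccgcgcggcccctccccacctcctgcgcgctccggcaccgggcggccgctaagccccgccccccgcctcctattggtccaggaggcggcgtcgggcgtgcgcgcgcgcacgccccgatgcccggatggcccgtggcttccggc
Sesn1: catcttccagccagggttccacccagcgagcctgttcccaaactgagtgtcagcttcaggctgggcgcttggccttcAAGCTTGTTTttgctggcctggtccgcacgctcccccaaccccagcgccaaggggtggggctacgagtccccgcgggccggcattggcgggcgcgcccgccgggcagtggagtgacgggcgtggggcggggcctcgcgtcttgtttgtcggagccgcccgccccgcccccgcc

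As a check of the labels, Socs3, the feedback inhibitor of LIF signalling, fell by 4.16 on the log2 scale without LIF (limma, adjusted p = 0.0046), and Klf4, a factor of the naive state, fell by 3.84 (limma, adjusted p = 0.010). Pou5f1, which encodes the ES cell factor Oct4, had a log2 change of 0.02 and Actb one of 0.02 (adjusted p = 0.99 and 0.98), and all 12 ES cell markers on the list were above the signal filter. Of these markers 10 had a negative change and 2, Klf4 and Esrrb, fell in limma's test. The 3' control probe set of 18S ribosomal RNA separated the arrays by number: array 1 read 462 with LIF and 451 without it, and array 2 read 5150.4 and 2990.4. Changes within each number, and fits with the number as a block, are therefore given beside the results. Primitive endoderm markers were also higher on the array numbered 2 in both groups, 10 of 10, with summed signals of 1638 (array 1) and 4670 (array 2) in LIF, and 1784 and 9541 in its absence. In each group 6 of 7 tested fibroblast markers went the other way, with sums of 1519 and 564 with LIF against 2485 and 990.1 without it. None of these markers was listed at 0, and their part in the values of the p53 target genes was not tested. In bulk RNA, fewer cells of a type and less RNA per cell cannot be told apart.

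Without LIF, 8578 of all 14445 tested genes had a positive change. Among the 9 p53 target genes 8 read higher and Sesn1 lower, by small amounts of 1.20-fold to 1.96-fold up and 1.57-fold down. None passed limma's test over all 14445 genes at an adjusted p of 0.05 (0 of 9, where 0.145% of all genes passed). At an unadjusted p of 0.05 or less there were 3 higher (Zmat3, Perp and Ccng1) and 1 lower (Sesn1), against 7.16% and 3.73% of all tested genes. The 2 groups lay apart, without overlap between arrays, for 7 genes that were higher and 1 that was lower, against 27.3% and 15.2% of all tested genes, and Mdm2 overlapped. In Aen, Phlda3 and Trp53inp1 the lower array without LIF stood barely above the higher array with LIF. With the array number as a block, Ccng1, Zmat3 and Perp rose (adjusted p = 0.0024, 0.016 and 0.032), 3 of 9 where 4.13% of all genes rose. The fit with the block leaves 1 residual degree of freedom, against 2 without it. The median log2 change of the 9 genes was 0.60, beside 0.09 for all tested genes. Leaving out array 2 without LIF lowered it to 0.09, beside 0.13 for all tested genes. With each array set to a common median of all probe sets the groups lay apart for 1 higher gene (Perp), against 11.9% of all tested genes. With a common median of the tested genes, an alternative chosen after seeing the data, they did for 3 (Perp, Sesn2 and Zmat3), against 19.2%. All 9 genes were above the signal filter, from the 65.8th to the 98.9th percentile of mean signal among genes.

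**Figure D1:**
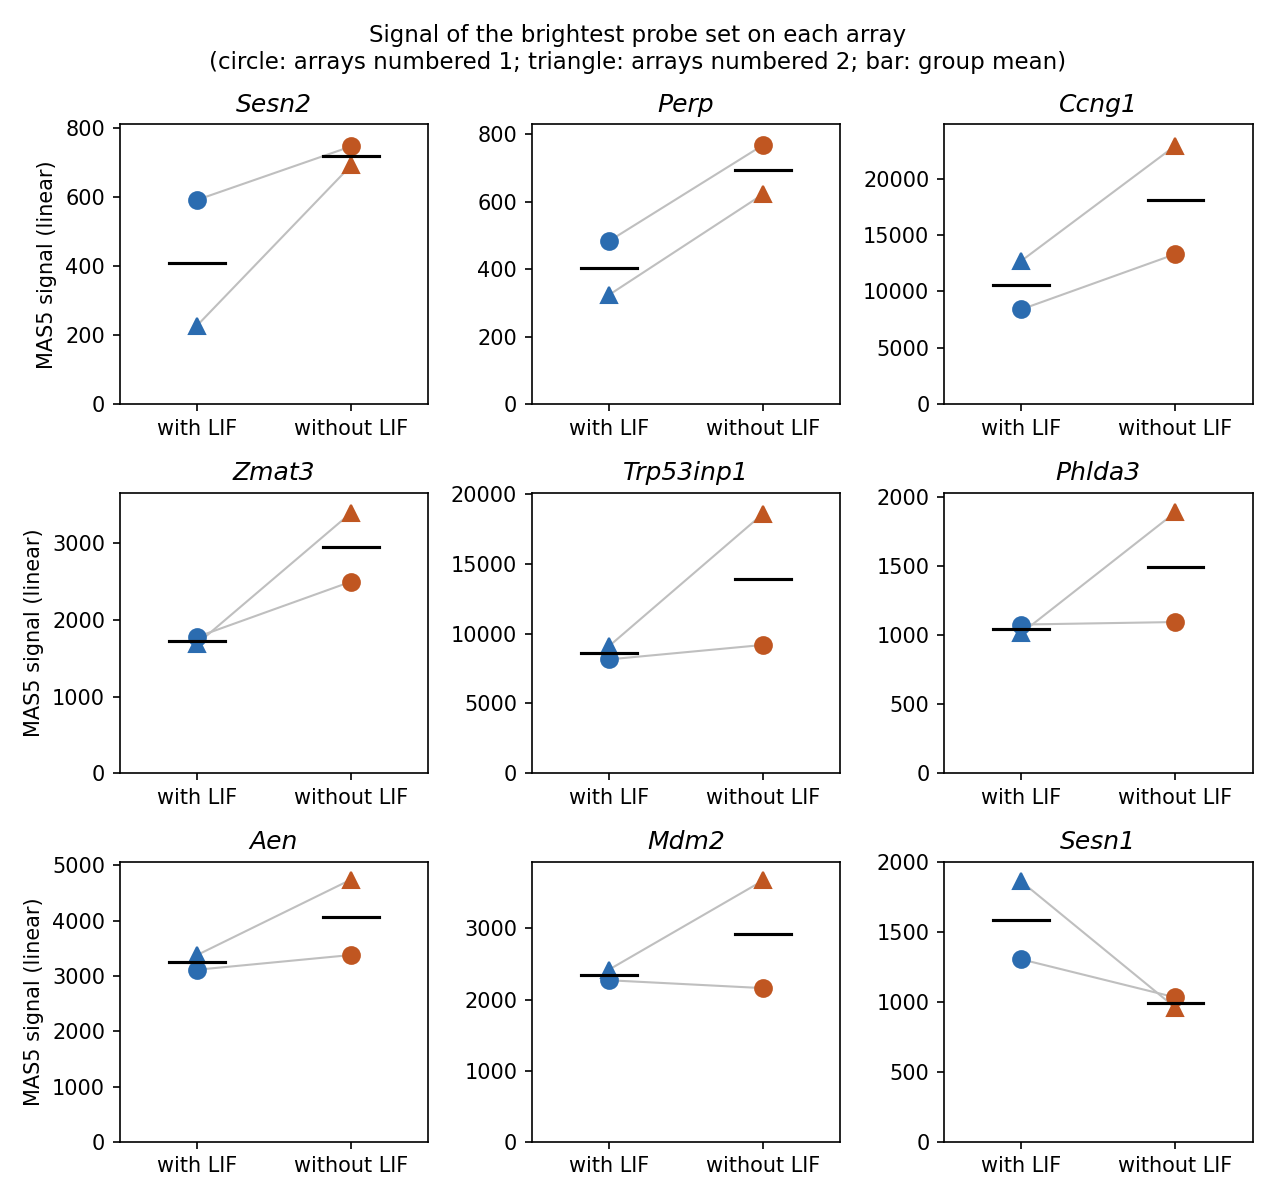
MAS5 signal (linear axis from 0) of the brightest probe set of each of the 9 p53 target genes on the 4 arrays, with LIF in blue and without LIF in orange; circles are arrays numbered 1, triangles arrays numbered 2, grey lines join arrays of one number and bars are group means. In Trp53inp1, Phlda3, Aen and Mdm2 the triangle without LIF stands above the other 3 arrays, which lie close together. Both arrays without LIF lie above both with LIF for every gene but Mdm2, where the groups overlap, and Sesn1, where they lie below.

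The negative feedback loop of p53 is represented by Mdm2 and Ccng1. Mdm2, the ubiquitin ligase that marks p53 for degradation, gave signals of 2272 and 2421 on arrays 1 and 2 with LIF, and of 2161 and 3675 on those without it. Only array 2 without LIF was high, and the groups overlapped. The log2 change was 0.27 (SE 0.27, 95% interval -0.36 to 0.89, adjusted p = 0.78), with -0.07 within number 1 and 0.60 within number 2. It was -0.03 with a common median of all probe sets and -0.12 on leaving out array 2 without LIF, so its sign is not settled. The next brightest probe set of Mdm2 showed the same array high, at 1809, 2131, 1831 and 3865 in the same order of arrays. The third probe set lay below the signal filter at 4.4 to 23.7 and was not tested.

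Ccng1 encodes cyclin G1, which recruits the phosphatase PP2A to Mdm2. Its signals were 8408 and 12702 with LIF against 13312 and 22927 without it, so both arrays without LIF were above both with LIF, though array 1 without LIF exceeded array 2 with LIF only slightly. The mean was 10555 ± 3036 with LIF and 18119 ± 6798 without LIF (SD, n = 2), a log2 change of 0.76 (1.69-fold, SE 0.31, adjusted p = 0.43). Within the numbers the changes were close to each other, 0.66 and 0.85, and with the number as a block the adjusted p was 0.0024, the smallest of the 9 genes. The other probe sets of Ccng1 had log2 changes of 0.43 and 0.60, and their groups did not overlap either. Their changes were less even within numbers 1 and 2, at 0.18 and 0.68, and at 0.37 and 0.82. With the block in limma's fit over all probe sets, their adjusted p was 0.092 and 0.018. Single arrays moved its size, to 0.36 without array 2 without LIF, to 0.46 without array 1 with LIF, and to 1.15 without array 1 without LIF (adjusted p = 0.50, 0.89 and 0.019). The last fit has 1 array without LIF, takes its spread from the arrays with LIF, and called 2.1% of all genes. The promoter stretch of Ccng1 shown above holds 1 exact decamer beside a copy with 1 letter off, found by the search added after that stretch had been read.

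Of the genes tied to cell death, Perp and Zmat3 were higher on both arrays without LIF. Perp, a tetraspan membrane protein of desmosomes and of p53-dependent apoptosis, read 484 and 324 with LIF against 769 and 623 without it. Its groups lay well apart, at 404 ± 113 and 696 ± 103 (SD, n = 2), with a log2 change of 0.81 (1.75-fold, SE 0.28, adjusted p = 0.35) and 0.67 and 0.94 within the numbers. Without array 2 with LIF it was 0.52 (adjusted p = 0.95). Zmat3, a zinc finger protein that binds RNA, read 1777 and 1685 with LIF against 2501 and 3400 without it. The arrays with LIF differed by little and both arrays without LIF were higher, with a log2 change of 0.75 (1.68-fold, SE 0.21, adjusted p = 0.24) and 0.49 and 1.01 within the numbers. Each of these genes had 1 probe set, and each passed with the number as a block. With the block and quantile normalization together Zmat3 and Ccng1 passed again and Perp did not, while Trp53inp1 did. That fit called 5.12% of all tested genes, in either direction.

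In the brightest probe sets of Trp53inp1, Phlda3 and Aen the difference came mainly from array 2 without LIF. Trp53inp1, a stress protein that acts with p53 and in autophagy, read 8154 and 9100.1 with LIF against 9192 and 18613 without it. Array 1 without LIF thus stood barely above the arrays with LIF, and the log2 change of 0.60 (SE 0.32, adjusted p = 0.55) was 0.17 within number 1 and 1.03 within number 2. It was 0.09 without array 2 of that group and 1.11 without array 1 (adjusted p = 0.0093, in the fit with 1 array without LIF that called 2.1% of all genes). Phlda3, a pleckstrin homology protein that inhibits the kinase Akt, read 1078 and 1014 with LIF against 1096 and 1892 without it. Here 3 arrays were nearly level, and the log2 change of 0.46 (SE 0.28, adjusted p = 0.60) was 0.02 and 0.90 within the numbers. Aen, an apoptosis-enhancing nuclease, read 3111 and 3375 with LIF against 3377 and 4741 without it. Its log2 change of 0.30 (SE 0.21, adjusted p = 0.66) was 0.12 and 0.49 within the numbers. Without array 2 of the group without LIF, Phlda3 and Aen changed by 0.07 and 0.06. The dimmest probe set of Aen differed, with similar changes of 0.76 and 0.79 within numbers 1 and 2. Its remaining probe sets changed by -0.07 and 0.17, and by 0.22 and 0.93.

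The sestrins, stress proteins that restrain the growth kinase complex mTORC1, differed from each other in sign. Sesn1 read 1306 and 1863 with LIF against 1033 and 960 without it (array values in order of number), so both arrays without LIF were below both with LIF. The means were 1585 ± 394 and 997 ± 52.0 (SD, n = 2), a difference of -0.65 on the log2 scale (SE 0.23). The adjusted p was 0.37, or 0.058 with the number as a block, with -0.34 and -0.96 within the numbers. The change was -0.39 without array 2 with LIF (adjusted p = 0.99) and -0.26 as the mean of its probe sets. The probe set behind these values is of a type (s_at) that can match transcripts of more than 1 gene. A plain probe set of Sesn1 read 821 and 900 with LIF against 594 and 578 without it, again apart, with a log2 change of -0.55. A further bright probe set, also of the s_at type, read -0.45. The remaining, dim probe set had signals of 25.5 to 44.4 and a change of 0.60 with an SE of 0.63. Sesn1 was the only one of the 9 genes with a negative change within both numbers.

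Sesn2 had the largest positive change of the 9 genes, with the largest SE. It read 592 and 227 with LIF against 747 and 691 without it, so the low value of array 2 with LIF set much of the difference. The log2 change was 0.97 (1.96-fold, SE 0.43, 95% interval -0.05 to 1.99, adjusted p = 0.48), 0.34 within number 1 and 1.61 within number 2. Leaving out array 2 with LIF gave 0.28, and leaving out array 1 with LIF gave 1.66. The other probe set of Sesn2 read 561 and 297 with LIF against 537 and 518 without it, with overlapping groups and a change of 0.37. The difference between the changes of Sesn1 and Sesn2 was not tested.

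**Figure D2:**
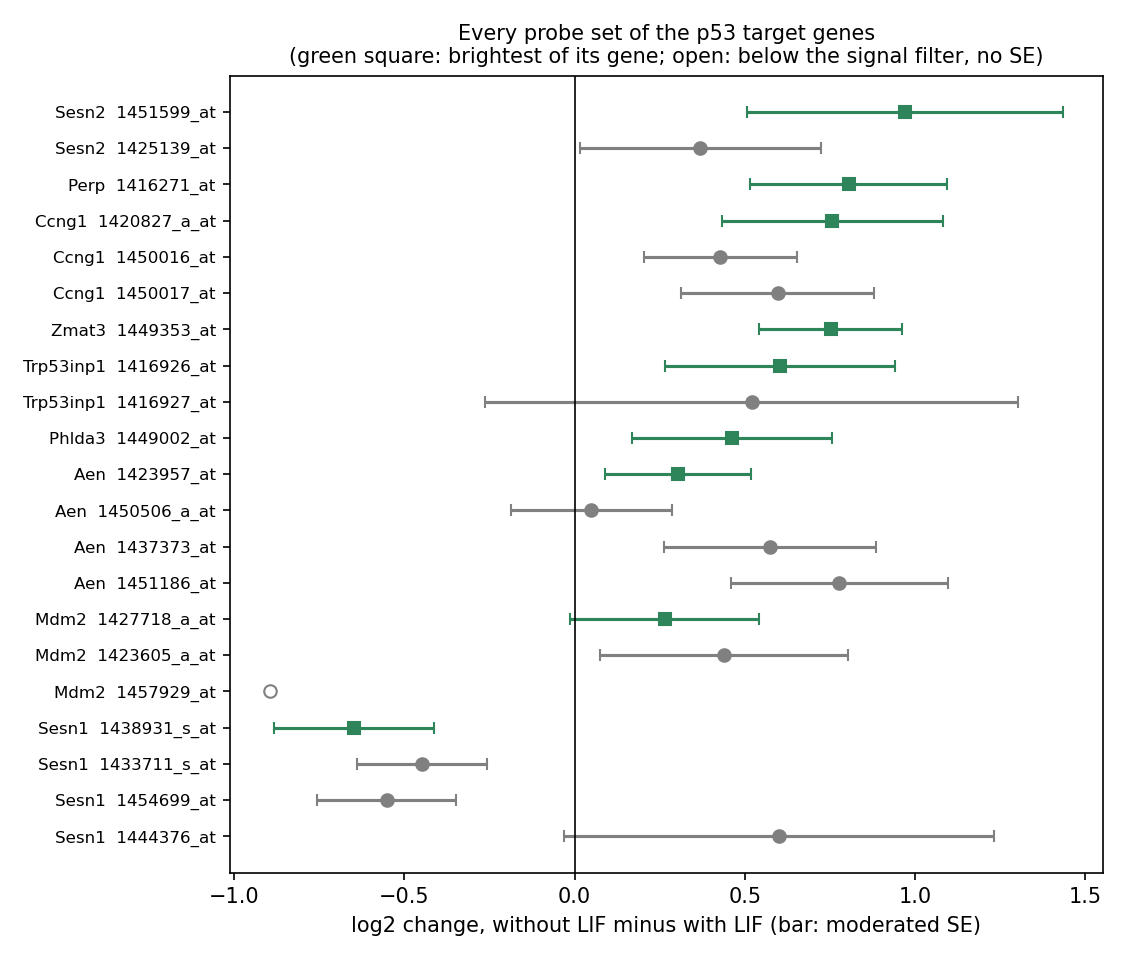
Log2 change, without LIF minus with LIF, of the 21 probe sets of the 9 genes, with moderated SE bars from the fit on all probe sets; green squares are the brightest probe set of each gene and the open circle is below the signal filter. All tested probe sets lie right of 0 apart from 3 bright ones of Sesn1.

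At the level of probe sets the picture was similar. Of the 20 tested probe sets, 17 had a positive change and 3, all of Sesn1, a negative one. None passed over the 31526 probe sets tested (limma, 0 of 20, where 0% of all passed), and 2 higher and 2 lower had an unadjusted p of 0.05 or less, against 6.83% of all in either direction. The groups did not overlap for 12 that were higher and 3 that were lower, against 24.1% and 13.1% of all probe sets. With the number as a block 6 rose, against 2.96% of all: a pair from Ccng1 and 1 each from Perp, Zmat3, Sesn2 and Trp53inp1. Probe sets of one gene share its RNA and are not independent. The probe sets of Aen ranged from 0.05 for its second brightest to 0.78 for its dimmest, and those of Trp53inp1 read 0.60 and 0.52, the dimmer with signals of 794 and 183 with LIF against 883 and 339 without it.

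The arrays numbered 2 carried most of the difference. For 8 of the 9 genes the change was more positive within the arrays numbered 2 than within those numbered 1, against 48.0% of all tested genes. The exception was Sesn1, whose negative change was also larger in size within number 2, at -0.96 against -0.34. The median change of the 9 genes was 0.17 within number 1 and 0.90 within number 2, beside 0.11 and 0.06 for all tested genes. Array 2 without LIF was the highest of the 4 arrays for 6 of the 9 genes, against 26.8% of all tested genes. Between the arrays without LIF, the 9 genes differed by a median of 0.49 on the log2 scale (array 2 minus array 1), and between those with LIF by 0.09. All but Mdm2 and Sesn1, 7 genes, were higher within both numbers, against 40.1% of all tested genes. With 1 array for each combination of group and number, the difference between the numbers has no test.

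**Figure D3:**
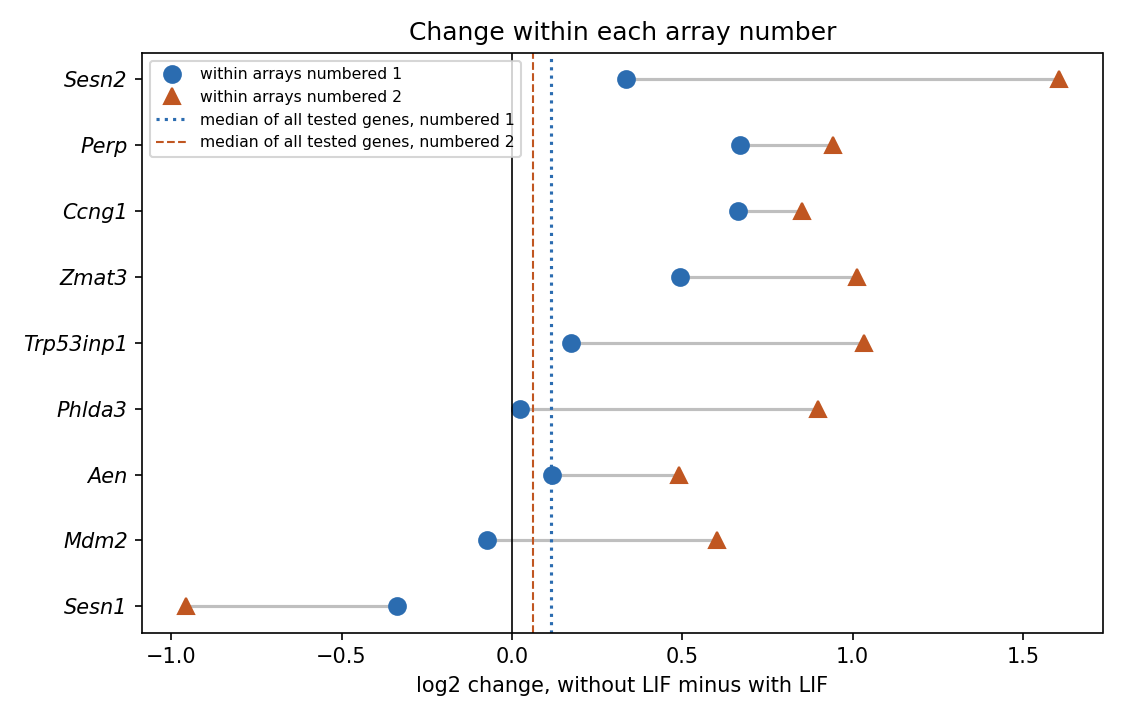
Log2 change, without LIF minus with LIF, of each gene within the arrays numbered 1 (blue circles) and within those numbered 2 (orange triangles), with the medians of all tested genes as dotted and dashed lines. The triangles lie right of the circles for every gene but Sesn1, and the gap is smallest for Ccng1 and Perp.

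The wider pathway was described with a pair of further lists. Of 40 other p53 targets outside the BCL2 family, the Gadd45 genes and the CDK inhibitors, 37 had a probe set and 36 were tested. In limma's test 0 passed, with 5 higher and 1 lower at an unadjusted p of 0.05 or less, where 7.16% and 3.73% of all tested genes were. The groups lay apart for 14 that were higher and 3 that were lower, where 27.3% and 15.2% of all tested genes did, and the list median was 0.27 (0.24 and 0.42 within the numbers), beside 0.09 for all tested genes. With the number as a block 4 rose and 0 fell, beside 4.13% and 2.62% of all genes: Btg2, Cpt1c, Ddit4 and Polk. Btg2, an antiproliferative gene, read 610 and 388 with LIF against 1157 and 863 without it (log2 change 1.04, SE 0.29, adjusted p = 0.25, with 0.92 and 1.15 within the numbers). Both arrays without LIF were well above those with LIF, and the change was nearly as large in one number as in the other. Ddit4, a stress-induced inhibitor of mTORC1, read 1146 and 1056 with LIF against 1624 and 3337 without it (log2 change 1.08, SE 0.33, adjusted p = 0.29). Polk, a DNA polymerase that copies past lesions, had a log2 change of 0.96, and Cpt1c, a carnitine palmitoyltransferase of neurons, one of 0.86 (adjusted p = 0.33 and 0.29). Sfn, the cell cycle checkpoint protein 14-3-3 sigma, was lower on both arrays without LIF, by -0.95 on the log2 scale (adjusted p = 0.36, or 0.085 in the blocked fit).

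Regulators of p53 were more evenly divided than the p53 target genes. Of 25 listed, 24 were tested, 16 with a positive and 8 with a negative change. Over all 14445 tested genes 8578 had a positive change. The list median of 0.09 was that of all tested genes. In limma's test 0 passed, with 2 higher and 1 lower at an unadjusted p of 0.05 or less, where 7.16% and 3.73% of all tested genes were. The groups lay apart for 6 higher and 4 lower, near the 27.3% and 15.2% of all tested genes. With the number as a block 2 rose and 1 fell, where 4.13% and 2.62% of all genes did. Sirt1, the deacetylase that acts on p53, read 3863 and 4266 with LIF against 2247 and 1737 without it, which is -1.04 on the log2 scale (SE 0.20; adjusted p = 0.11, or 0.0023 in the blocked fit). Its arrays without LIF were both far below those with LIF, with changes of -0.78 and -1.30 within the numbers. Hipk2, a kinase that phosphorylates p53, had signals of 237 and 177 with LIF against 427 and 352 without it (log2 change 0.92; adjusted p = 0.31, or 0.042 in the blocked fit). Trp53bp1, a DNA break repair protein that binds p53, stood at 0.59 on the log2 scale (adjusted p = 0.41, or 0.030 in the blocked fit). The checkpoint kinase Chek1 and the p53 inhibitor Mdm4, a relative of Mdm2, had changes of -0.35 and -0.47 (adjusted p = 0.51 and 0.56), with groups that did not overlap. Trp63, named after its value was seen, had the most positive change of the list, 1.14, at dim signals of 10.9 to 36.7 (adjusted p = 0.67).

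**Figure D4:**
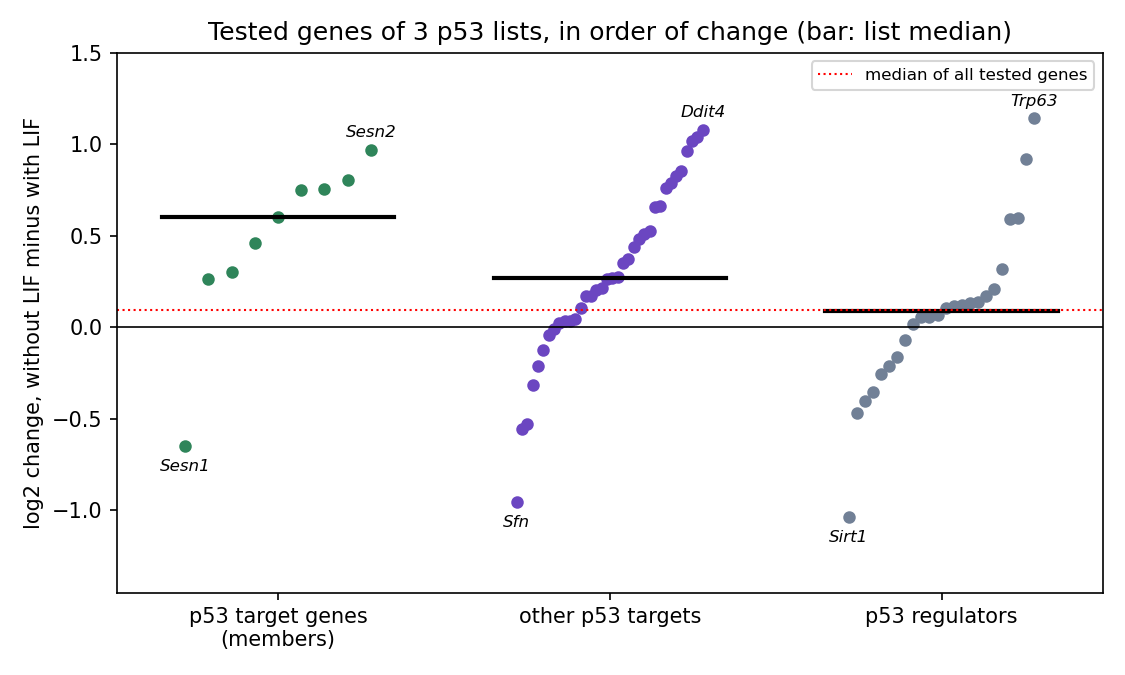
Log2 change, without LIF minus with LIF, of each tested gene in the 9 p53 target genes, the 36 other p53 targets and the 24 p53 regulators, in order of change within a list; bars are list medians and the dotted line is the median of all tested genes. The medians stand at 0.60, 0.27 and 0.09, and each list has members on both sides of 0.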

How the data were processed

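Each of 4 CGR8 RNA samples was read as biotinylated cRNA on 1 array. The deposited intensities were made with MAS5, per the submitters' processing notes, and their values are linear; the MAS5 version and a genome build are not given in the sources used here. The mean of each array, trimmed by 2% at both ends, was 500.0. The number of arrays limits the precision.

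For the genes, the 64 control probe sets and those with several symbols (932) or none (9160) were left out, which kept 34945. A gene was represented by its probe set of highest mean log2 signal. The 1 value at 0 was raised to the smallest positive value. Genes with a mean log2 signal above the 30th percentile of probe sets (4.51, a signal of 22.9) entered limma 3.58.1 (R 4.3.3; lmFit and eBayes with trend on group alone, which leaves 2 residual degrees of freedom; two-sided, Benjamini-Hochberg over 14445 genes, threshold 0.05). Every probe set but the controls was fitted likewise, including those with several symbols or none, and 31526 were above the filter. Positive log2 changes mean higher without LIF, SE is moderated, and means ± SD are of linear signals. The fit was tested on simulated data. Figures were drawn with matplotlib 3.10.9.

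Members and lists were chosen with earlier results of these data known. Text names all members, and of each further list those past the threshold in the fit without or with the block, filled to 5 by smallest p, with Socs3, Klf4, Pou5f1 and Actb as checks. Of the lists, 1 regulator and 3 targets matched no probe set of 1 symbol, and Fas lay below the filter. Alternatives were other filters, a pseudocount of 14.3, quantile and median scaling, other eBayes settings and probe set choices, leaving out each array, the number as a block and an adjusted p of 0.1. The block with quantile normalization and the median of tested genes were added later, after seeing the data.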

Additional observations from a re-analysis of the deposited data

How the results depend on the processing

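Of the 9 genes, 0 passed in the fit as reported. With the array number as a block (replicate block) 3 passed, 3 also passed with the block and quantile normalization together, and 0 to 2 passed when each array was left out (Ccng1 and Trp53inp1 without array 1 without LIF), where the lone array is assumed to vary like the other group. Those with the block were Ccng1, Zmat3 and Perp, and with quantile normalization added Ccng1, Zmat3 and Trp53inp1. Of the members' probe sets 6 passed with the block. Of the other p53 targets 4 passed with the block, 3 with the block and quantile normalization, and 0 to 3 when an array was left out; of the regulators 3, 2, and 0 to 1. The labels do not tie the numbers to a shared culture or day. Deviations of same-numbered arrays from their group means correlated at r = 0.29 over genes, with 2 pairs. The block raised the calls over all genes from 21 to 975. With quantile normalization added there were 740 calls, 5.12% of the genes tested. The count of higher genes with groups apart was 7, and it was 1 (Perp) with a common median of all probe sets, where 11.9% of all tested genes lay apart, and 3 with a common median of the tested genes. The first of these moved the median change of all tested genes from 0.09 to -0.20, and the 9 genes' median from 0.60 to 0.31, so their distance from all tested genes stayed at 0.51. Before that scaling the median signal of arrays 1 and 2 was 69.9 and 59.6 with LIF, and 95.5 and 65.5 without it. Leaving out an array gave members' medians of 0.09 to 0.86, the lowest without array 2 without LIF and the highest without array 1 without LIF. Mdm2 changed sign with a common median of all probe sets (-0.028), with the mean of its probe sets (-0.064) and without array 2 without LIF (-0.12, in a range up to 0.65). The mean of its probe sets includes the one below the signal filter, at -0.90, beside 0.27 and 0.44 for the others. Where genes were represented by their brightest plain probe set, that dim probe set stood for Mdm2, which was then not tested. The causes were not tested. The other 8 genes kept their direction under all alternatives run.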
